A study of Mus musculus with 36 samples.

Results

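The genes described here encode 36 plasma proteins of the complement and coagulation systems that are made mainly by liver. Their rows were taken by gene symbol from the deposited count table, which lists 21654 genes, and each of the 36 symbols matched 1 row. The rule uses symbols and no measured value, though it was written with earlier results of these data known, and all 36 had enough reads to be tested.

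Liver mRNA was sequenced from 36 C57BL/6 mice, 18 wild type (WT) and 18 with a knockout of Bmal1 (KO). Bmal1, listed as Arntl, encodes the transcription factor that drives the circadian clock together with CLOCK. Lights were on for 12 h and off for 12 h, food and water were freely available, and livers were collected every 4 h from ZT0 to ZT20, where ZT (Zeitgeber time) counts the hours since lights on. Each of the 12 genotype-by-time groups held 3 mice, and by label 9 mice of each genotype were male and 9 female. Their ages ran from 6.4 to 13.9 weeks. By the series title the loss of Bmal1 was prenatal, so KO livers had developed without it, and no group lost it in adult life. The protocol also writes cKO for these mice without spelling the term out, and no liver-specific driver is named. The labels place the mice in 20 cages, some of which held both genotypes, and p-values measure the spread between mice.

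Complement is a cascade of plasma proteases and binding proteins. Lectins, antibodies or spontaneous turnover of C3 start it, convertases built from C2 and C4 or from factor B cleave C3 and C5, and the terminal components C5 to C9 assemble a pore in the target membrane. Coagulation runs from the contact and vitamin K-dependent proteases to thrombin, the active form of F2, which turns fibrinogen into fibrin; plasminogen, once activated, dissolves the clot. Hepatocytes secrete most of these proteins, several of them as acute-phase proteins.

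Promoters of 2 gene sets are shown because the results turn on them: C6, C8a and C9 of the terminal pathway, which differed strongly between the sexes, and the fibrinogen chains Fga, Fgb and Fgg, which lie side by side on 1 chromosome and were all higher in KO. Each run is the 250 bases before the annotated start, 5′ to 3′ on the gene's strand, from RefSeq on GRCm38.p6, at chr15:4726960-4727209 (plus strand), chr4:104876399-104876648 (minus), chr15:6445096-6445345 (plus), chr3:83025903-83026152 (plus), chr3:83049864-83050113 (minus) and chr3:83007474-83007723 (plus). Capitals mark a match to TAGGTCA, a binding element of ROR and REV-ERB receptors, in C6, and to TTCNNNGAA, a STAT binding element, in C8a, Fga and Fgb.
C6: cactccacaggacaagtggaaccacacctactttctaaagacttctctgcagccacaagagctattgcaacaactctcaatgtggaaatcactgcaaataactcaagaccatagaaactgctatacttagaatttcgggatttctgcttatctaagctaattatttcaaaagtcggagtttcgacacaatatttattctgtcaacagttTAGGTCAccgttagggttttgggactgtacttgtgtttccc
C8a: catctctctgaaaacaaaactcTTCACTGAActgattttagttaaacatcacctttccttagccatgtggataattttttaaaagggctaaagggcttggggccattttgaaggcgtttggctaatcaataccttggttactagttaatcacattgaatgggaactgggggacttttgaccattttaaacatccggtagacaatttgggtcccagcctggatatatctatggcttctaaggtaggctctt
C9: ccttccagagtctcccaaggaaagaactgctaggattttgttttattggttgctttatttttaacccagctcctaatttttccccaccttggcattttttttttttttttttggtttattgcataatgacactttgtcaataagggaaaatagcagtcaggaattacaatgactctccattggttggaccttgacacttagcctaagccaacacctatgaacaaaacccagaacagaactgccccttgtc
Fga: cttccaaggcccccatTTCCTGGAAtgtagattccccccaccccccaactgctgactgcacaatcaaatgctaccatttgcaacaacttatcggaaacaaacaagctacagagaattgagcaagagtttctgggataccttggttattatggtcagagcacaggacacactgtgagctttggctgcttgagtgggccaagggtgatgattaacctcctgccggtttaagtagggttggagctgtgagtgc
Fgb: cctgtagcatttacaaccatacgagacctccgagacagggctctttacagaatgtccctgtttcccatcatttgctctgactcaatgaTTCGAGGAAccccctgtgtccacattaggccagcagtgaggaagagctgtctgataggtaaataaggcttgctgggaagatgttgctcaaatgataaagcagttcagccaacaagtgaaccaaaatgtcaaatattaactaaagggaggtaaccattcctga
Fgg: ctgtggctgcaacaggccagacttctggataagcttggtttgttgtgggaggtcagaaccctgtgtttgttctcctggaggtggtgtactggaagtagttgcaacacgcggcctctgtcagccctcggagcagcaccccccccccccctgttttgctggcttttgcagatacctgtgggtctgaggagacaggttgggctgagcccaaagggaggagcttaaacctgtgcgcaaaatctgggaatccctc
The RefSeq promoter table held 28 of the 36 members. On either strand of the same 250 bases, the E-box CACGTG, to which BMAL1 with CLOCK binds, was in 0 of the 28 and in 6.02% of all 32851 promoters, and the D-box TTATGTAA was in 0 of the 28 and in 0.819%. TAGGTCA was in 1 of the 28 (C6) and in 2.23% of all promoters. TTCNNNGAA was in 6 of the 28 (C8a, F9, Fga, Fgb, Masp2 and Pros1) and in 7.02%. For each motif the members were counted by gene and the percentages by promoter entry, so the units are not the same. None of the 4 motifs was in the 250 bases of C9 or Fgg. These are matches of letters in a short window, and no binding was measured.

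Total counts ranged from 12657858 to 12839653 per library. The sources used here name no step that set a common depth, so whether these near-equal totals hold all reads is not known. Arntl reads were present in every KO library, at 14.6 to 24.01 CPM (TMM-scaled read counts per library size), against 0.793 to 41.3 CPM over the day in WT, so reads of the locus remained and the labels do not say which part was deleted. The 12 libraries of ZT16 and ZT20 stood apart from the other 24: on the leading principal component (32.8% of the variance) their scores were 14.2 to 102.5, and those of the others -37.2 to -12.5. Across genes, a library's deviation from the gene mean correlated with transcript GC content at Spearman's rho of -0.60 to -0.15 in those 12 and 0.17 to 0.47 in the 24. In WT ZT16 replicate 3, whose label is female, Xist had 4 reads and Ddx3y 1874, against 6910 to 15140 and at most 8 in the other 17 libraries labelled female, so its label went against its reads. Its Arntl level of 20.47 CPM lay within the ranges of both genotypes, so its genotype label could not be checked in this way. The library was left out of the comparisons of sexes and kept under its labels in the other fits. The members' calls of KO-WT differences and of rhythm that were lost without it are named. Hepatocyte markers were abundant: the summed level of the 7 measured markers had a median of 29500 CPM in WT and 30900 CPM in KO, and 1 of the 7 was called higher (Apoa2) and 1 lower (Trf) in KO.

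The 36 genes took 2.88% to 5.40% of all deposited counts in WT libraries (median 4.39%) and 3.69% to 6.44% in KO (median 5.41%). These are not shares of all liver mRNA, since Alb, a hepatocyte marker looked for, had no row under that symbol in the deposited counts. Per kilobase of the longest transcript, the highest mean levels over all 36 livers were those of Fgg (2690 CPM per kb), C3 (1764), Fga (1615), Fgb (1315), Vtn (1224) and Plg (1216). The lowest were Pros1 (22.2), Masp1 (24.5), C2 (27.1) and F11 (30.9). Mean counts per library lay between 879 and 116900 reads per member, and the lowest count of any member in any library was 111, so counting error was small beside the spread between mice. The share of all tested genes that were called, given beside each count, includes genes with far fewer reads.

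The first comparison asked how KO differed from WT over the mean of the 6 times. Of the 36 members 13 were higher in KO and 4 were lower by edgeR's quasi-likelihood test with Benjamini-Hochberg adjustment (adjusted p under 0.05). Of all 13201 genes tested, 35.7% were called, 17.6% higher and 18.1% lower, so the members' 36.1% higher lay above and their 11.1% lower below the shares over all genes. The median log2 fold change of the members was 0.07, against 0.01 over all genes, and 20 of 36 were positive, against 51% of all genes. In bulk liver, fewer cells of a type and less RNA per cell cannot be told apart. Markers of Kupffer cells moved with genotype: 11 of 11 were lower in KO, with a summed level of 119.5 to 481.4 CPM in WT (median 254.1) and 83.2 to 390.7 CPM in KO (median 153.4), and their part in the members' differences was not tested.

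**Figure D1:**
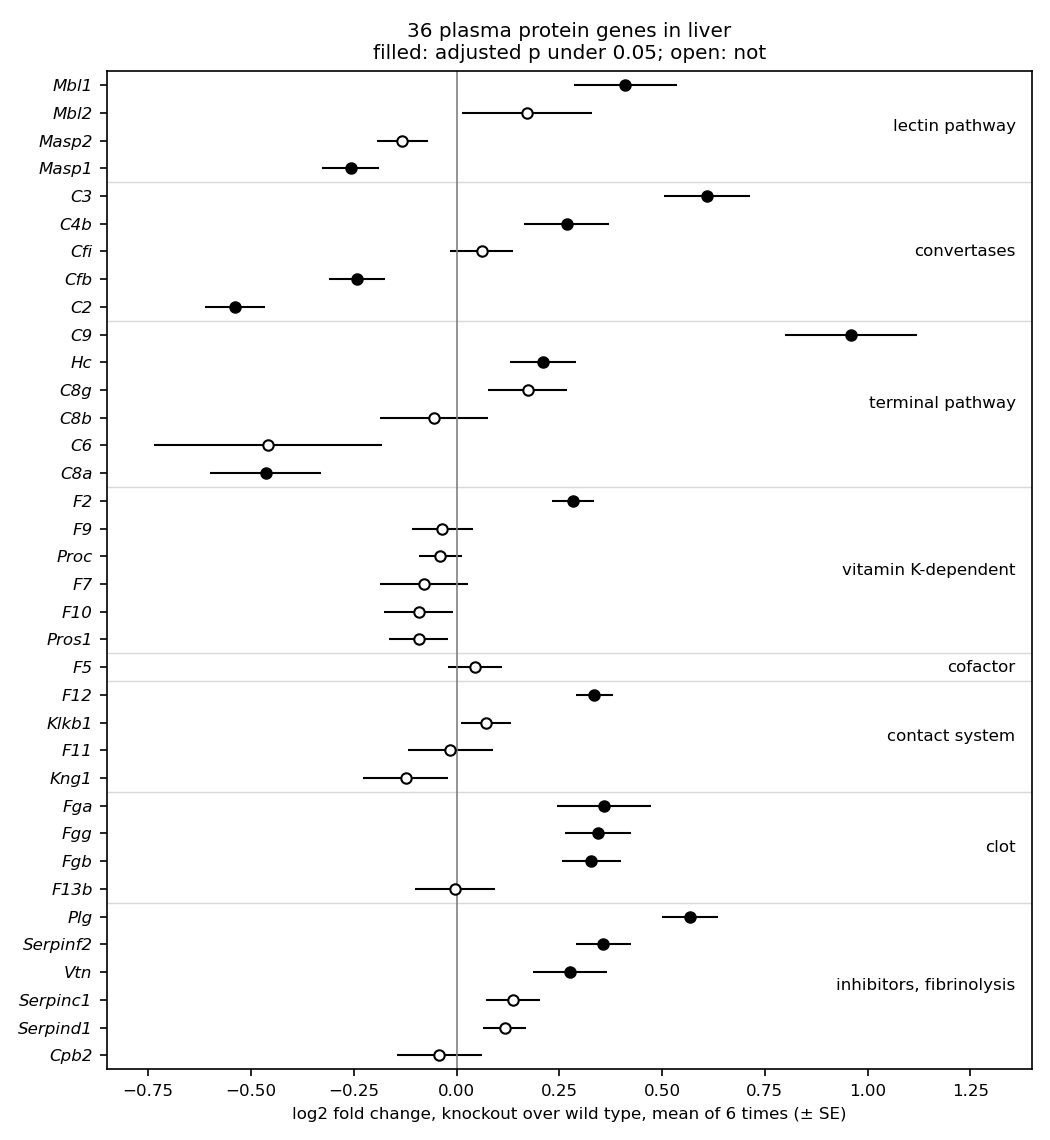
Log2 fold change of each member, KO over WT, averaged over the 6 times, with its standard error (horizontal axis), grouped by role; filled points passed an adjusted p of 0.05. C9 at 0.96 and C3 at 0.61 are farthest to the right, C2 at -0.54 farthest to the left, and 5 of the 6 vitamin K-dependent members lie close to 0.

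In the lectin pathway, whose mannose-binding lectins recognise microbial sugars and whose serine proteases cleave C4 and C2, Mbl1 rose and Masp1 fell. Masp1 (ENSMUSG00000022887, mm9 chromosome 16, 23449490 to 23520676) encodes a protease that activates MASP-2. Its level was 81.2, 148 and 205 CPM (lowest, median, highest of 18 livers) in WT and 63.5, 126 and 164 CPM in KO. The ranges overlapped widely, and KO differed from WT by -0.26 ± 0.07 on the log2 scale (± SE here and elsewhere, adjusted p = 0.00437). Mbl1 had a log2 fold change of 0.41 ± 0.13 (adjusted p = 0.011), Mbl2 of 0.17 (adjusted p = 0.43) and Masp2 of -0.13 (adjusted p = 0.0985). The Masp2 row overlaps that of Tardbp on the mm9 coordinates of the table.

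The components of the convertases changed in opposite directions. C3 and C4b, the proteins cleaved and deposited on targets, were higher in KO, while C2 and Cfb, the homologous protease subunits of the classical and alternative C3 convertases, were lower. C2 (ENSMUSG00000024371) and Cfb (ENSMUSG00000090231) are neighbours on mm9 chromosome 17, at 34999549 to 35035397 and 34993319 to 34999463. C2 stood at 49.99, 83.97 and 119 CPM in WT and at 31.4, 59.6 and 79.1 CPM in KO (lowest, median, highest). Its KO mean was below the WT mean at 6 of 6 times, with no overlap at 3 of them, and its log2 fold change was -0.54 ± 0.07 (adjusted p = 1.24e-06). Cfb stood at 75.4, 126 and 152 CPM in WT and at 69.5, 105 and 139 CPM in KO. Its KO mean was also lower at 6 of 6 times, and the smaller difference of -0.24 ± 0.07 passed the test (adjusted p = 0.00617). C3 (ENSMUSG00000024164), the central component, ranged from 2102 to 11750 CPM in WT (median 7184) and from 3450 to 19420 CPM in KO (median 11060). KO means of C3 were higher at 6 of 6 times, by 0.61 ± 0.10 on the log2 scale (adjusted p = 3.99e-05). C4b was called at 0.27 (adjusted p = 0.0437), a call that was lost in 21 of the 36 fits without 1 library. Its reads may be split with its near-identical copy C4a (-1.49, adjusted p = 0.0024). C4a was 104 ± 130 CPM in WT and 37.8 ± 45.4 CPM in KO (SD), with a female-to-male log2 difference of -4.57 in WT. The KO-WT fit kept the WT library whose sex label went against its reads. The part of that library in the C4a difference was not tested. Cfi, the protease that inactivates C3b and C4b, differed by 0.06 (adjusted p = 0.577).

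In the terminal pathway, C9 had the largest fold change of the 36 members. C9 (ENSMUSG00000022149, mm9 chromosome 15, 6395327 to 6448744), whose product polymerises into the ring of the pore, stood at 221, 662 and 1324 CPM in WT and at 272, 1209 and 3970 CPM in KO. Its KO mean was higher at 6 of 6 times, on average 1.95-fold (log2 fold change 0.96 ± 0.16, adjusted p = 2.71e-05). In males the genotypes were separate: WT males lay between 495 and 1324 CPM and KO males between 1397 and 3970 CPM, with no overlap, which held for 1.09% of tested genes in this direction. Females overlapped, with 221 to 749 CPM in 8 WT and 272 to 1021 CPM in 9 KO livers. In males alone the log2 fold change was 1.38 ± 0.18 (adjusted p = 0.000888) and in females alone, by label and with the doubtful library among them, 0.57 ± 0.18 (adjusted p = 0.0494). The difference between the sexes in this effect did not pass its own test (adjusted p = 0.462 over 13391 genes).

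Of the components that precede C9 in the pore, C8a was called lower and Hc higher in KO, and C6, C8b and C8g were not called. C8a, the alpha chain of C8, was lower in KO, at 210, 824 and 1158 CPM in WT and 142, 517 and 1158 CPM in KO, a log2 difference of -0.46 ± 0.13 (adjusted p = 0.00778), and of -0.36 (adjusted p = 0.0168) without WT ZT16 replicate 3. C8a and C8b lie next to each other on mm9 chromosome 4, and C8b differed by -0.05 ± 0.13 (adjusted p = 0.783). C8g, the third chain, differed by 0.17 (adjusted p = 0.168), and its row overlaps Fbxw5. Hc, which encodes C5, was called higher at 0.21 (adjusted p = 0.0419), and this call was lost in 22 of the 36 fits without 1 library. C6 differed by -0.46 ± 0.28 (adjusted p = 0.207), or by -0.0096 (adjusted p = 0.976) without WT ZT16 replicate 3, and varied so strongly between the sexes that its overall values are given by sex.

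Of the 6 vitamin K-dependent genes, which encode proteins that carry carboxylated glutamates, only F2 (prothrombin) was called. F2 stood at 1016, 1905 and 2167 CPM in WT and at 1126, 2282 and 2699 CPM in KO, a log2 difference of 0.28 ± 0.05 (adjusted p = 8.73e-05), with KO means higher at 6 of 6 times. F7, F9, F10, Proc and Pros1 had log2 fold changes between -0.09 and -0.03, with adjusted p of 0.329 to 0.755. The cofactor F5 differed by 0.04 ± 0.06 (adjusted p = 0.628). Among the 5 genes of the vitamin K cycle, Vkorc1, the epoxide reductase that warfarin blocks, was called higher (0.21, adjusted p = 0.0053) and the other 4 were not called.

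In the contact system, F12 was called and F11, Klkb1 and Kng1 were not. F12 (ENSMUSG00000021492, mm9 chromosome 13, 55519319 to 55528154), the protease that starts the intrinsic pathway on charged surfaces, stood at 233, 463 and 604 CPM in WT and at 253, 625 and 745 CPM in KO. The wide ranges held a large difference between times, and within times the genotypes were separate: KO livers were all above WT livers at 5 of 6 times. The log2 fold change was 0.34 ± 0.05 (adjusted p = 1.31e-06). F11, Klkb1 and Kng1 differed by -0.02, 0.07 and -0.12 (adjusted p = 0.928, 0.375 and 0.379). The Klkb1 row overlaps Cyp4v3, and Kng1 has the close copy Kng2, which differed by -0.13 (adjusted p = 0.328).

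The 3 fibrinogen chains were higher in KO by similar amounts. They lie within mm9 chromosome 3, Fgg at 82811781 to 82818975, Fga at 82830075 to 82838036 and Fgb at 82846169 to 82853725. Fgb stood at 3281, 4344 and 6865 CPM in WT and at 4306, 5254 and 10180 CPM in KO, a log2 difference of 0.33 ± 0.07 (adjusted p = 0.000664). Fgg stood at 2609, 3931 and 8197 CPM in WT and at 3815, 4603 and 9076 CPM in KO (0.34 ± 0.08, adjusted p = 0.00132). Fga stood at 1362, 3710 and 5592 CPM in WT and at 2024, 5009 and 8619 CPM in KO (0.36 ± 0.11, adjusted p = 0.0153). Ranges over the whole day overlapped for all 3. F13b, the carrier subunit of the enzyme that cross-links fibrin, differed by -0.0037 ± 0.10 (adjusted p = 0.983).

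Among inhibitors and fibrinolysis genes, Plg, Serpinf2 and Vtn rose, and Serpinc1, Serpind1 and Cpb2 did not pass the test. Plg (ENSMUSG00000059481, mm9 chromosome 17, 12571475 to 12612250), which encodes the precursor of the fibrin-degrading protease plasmin, stood at 1319, 2882 and 3340 CPM in WT and at 2576, 4198 and 5084 CPM in KO. At each of the 6 times the 3 KO livers were above the 3 WT livers, and the log2 fold change of 0.57 ± 0.07 had the smallest p of the members (adjusted p = 1.96e-07). Plg, F2 and F12 were the 3 of 36 members with KO above WT without overlap at 5 or 6 times, a pattern that 2.03% of tested genes showed. Serpinf2, which encodes the main plasmin inhibitor antiplasmin, also rose, by 0.36 ± 0.07 (adjusted p = 0.000135), so a protease precursor and its inhibitor both had higher levels. Vtn, which encodes vitronectin, differed by 0.27 (adjusted p = 0.0176). Serpinc1 (antithrombin), Serpind1 (heparin cofactor) and Cpb2 (a carboxypeptidase that slows fibrinolysis) differed by 0.14, 0.12 and -0.04 (adjusted p = 0.106, 0.0872 and 0.791).

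**Figure D2:**
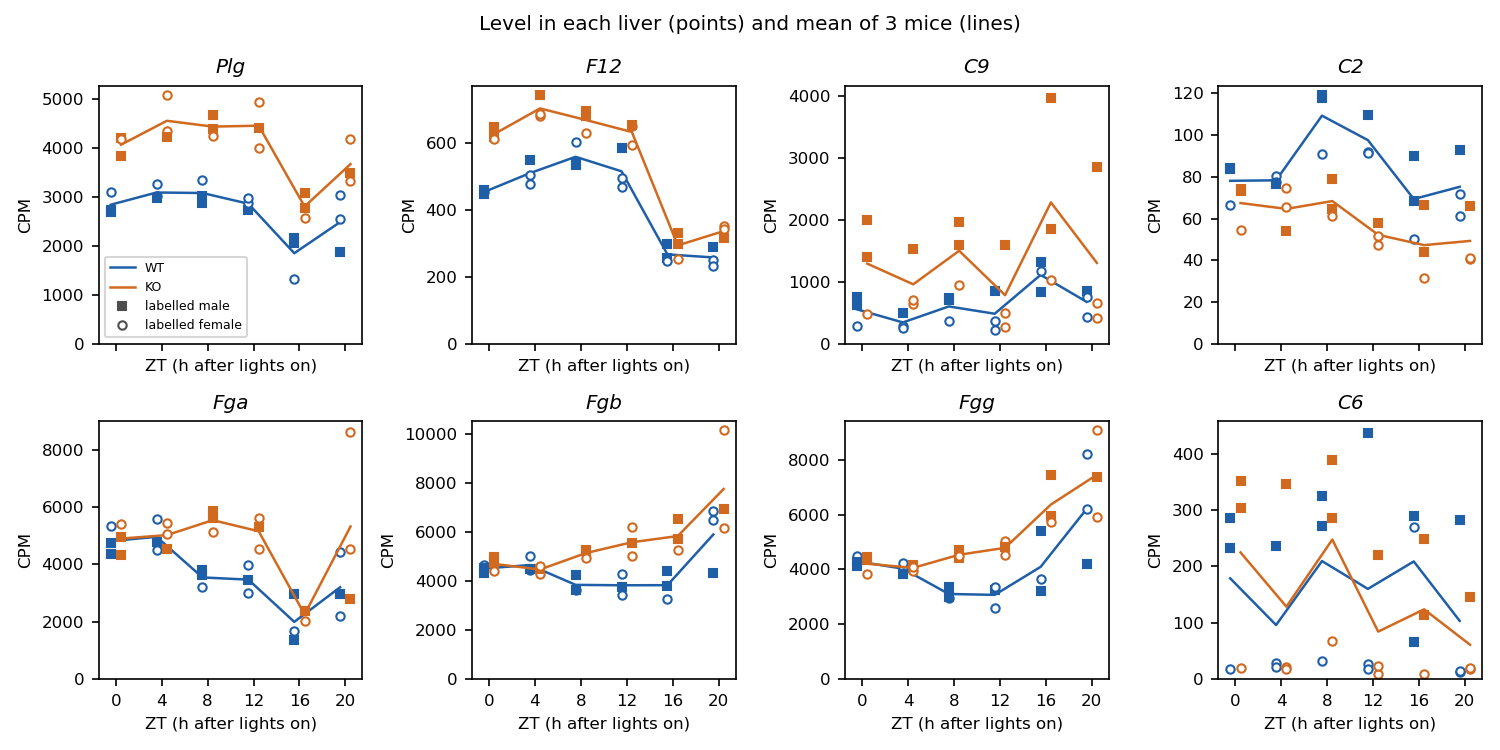
Level in CPM of 8 members in each liver against ZT, with squares for mice labelled male, open circles for mice labelled female and lines through the means of 3 mice, WT in blue and KO in orange. The 3 Plg livers of KO are above the 3 of WT at each time, WT and KO means of the fibrinogen chains lie close together at ZT0 and ZT4, and C6 falls into 2 levels by sex.

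The second comparison took each time by itself, with 3 mice against 3. F12 was the 1 member called at ZT0 (1.97% of all tested genes were called), F12 and C9 were called at ZT4 (3.56%), C2, C9 and Plg at ZT8 (8.56%). At ZT12 the called members were C2, Fgb, Fgg, Serpinf2 and Plg (11.9% of genes), at ZT16 C2, C6, Fgb, Fgg and Plg (8.61%), and at ZT20 F12 (3.38%). The members' shares of 2.78% to 13.9% were near these shares over all genes. The 17 calls had adjusted p between 0.00104 and 0.049, and all but C2 at ZT12 were lost on leaving out at least 1 of the 36 libraries.

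C2 at ZT12 was 110, 91.9 and 91.4 CPM in the 3 WT livers and 47.4, 51.5 and 57.8 CPM in the 3 KO livers, a log2 difference of -0.90 ± 0.18 (adjusted p = 0.00104). At ZT0 the same gene was 66.4, 83.9 and 84.1 CPM in WT and 74.2, 73.4 and 54.8 CPM in KO, and these groups overlapped (-0.22, adjusted p = 0.682). Plg at ZT12 was 2737, 2881 and 2975 CPM in WT and 4947, 4012 and 4421 CPM in KO, without overlap (0.64 ± 0.17, adjusted p = 0.0121, and 0.058 without KO replicate 1). For F12 at ZT4, WT livers had 478, 503 and 548 CPM and KO livers 680, 745 and 686 CPM (0.47 ± 0.11, adjusted p = 0.015). C9 at ZT8 was 372, 698 and 735 CPM in WT and 1965, 1592 and 942 CPM in KO (1.32 ± 0.39, adjusted p = 0.0312), with the lowest value of each group in the female. Both calls were lost without 1 library of their time, at adjusted p of 0.0639 or more for C9 (5 fits) and 0.0526 or more for F12 (4 fits).

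The call for C6 at ZT16 was lost without any 1 of 3 libraries, WT replicate 3, KO replicate 2 or KO replicate 3 (adjusted p = 0.0707 to 0.885). WT livers had 66.6, 290 and 270 CPM and KO livers 249, 115 and 8.31 CPM, for a log2 difference of -2.77 ± 0.74 (adjusted p = 0.0187). The WT liver with 270 CPM is the one labelled female whose reads went against the label, and in KO the female liver had 8.31 CPM. Without that library the difference was -0.17 ± 0.48 (adjusted p = 0.885). Plg, Fgb and Fgg at ZT16 also lost their calls without it (adjusted p = 0.163, 0.129 and 0.139), and C9 gained one (1.39 ± 0.40, adjusted p = 0.0297).

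Whether the KO-WT difference varied over the 6 times was tested jointly. No member was called, against 1.67% of tested genes. An unadjusted p under 0.05 was found for 1 member, C6 (adjusted p = 0.422, and 0.923 without WT ZT16 replicate 3), and for 10.3% of all tested genes. DESeq2 called 0 members as well, with 3 at an unadjusted p under 0.05. The next smallest adjusted p were those of Fgg (0.527), Fgb (0.554) and C2 (0.61).

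Values of the fibrinogen chains at single times are given for Fgg and Fgb, whose calls at ZT12 and ZT16 are named above. At ZT0, Fgg was 4489, 4261 and 4138 CPM in WT and 4333, 4469 and 3815 CPM in KO, and at ZT4 the groups overlapped as well. At ZT12 it was 3261, 3344 and 2609 CPM in WT and 5032, 4509 and 4819 CPM in KO, with no overlap (0.64 ± 0.20, adjusted p = 0.0324). The WT mean of Fgg was 4296 ± 178 CPM at ZT0 and 3071 ± 402 CPM at ZT12, and the KO mean 4206 ± 345 and 4787 ± 263 CPM (SD, n = 3). Fgb at ZT0 was 4658, 4539 and 4345 CPM in WT and 4731, 4981 and 4394 CPM in KO, and at ZT12 3764, 4300 and 3429 CPM in WT and 6207, 5014 and 5542 CPM in KO. Fga stood apart at ZT16. Its WT mean was 4809 ± 494 CPM at ZT0 and 1994 ± 845 CPM at ZT16, where WT replicate 3, of doubtful label, had 1667 CPM. In KO at ZT16, Fga stood at 2253 CPM, against 5842 CPM for Fgb and 6366 CPM for Fgg. At ZT12 the WT means of all 3 were below those at ZT0, for Fga at 3466 CPM. For Fgb they were 4514 CPM at ZT0 and 3831 CPM at ZT12. Transcript GC content was 49.3% for Fga, 44.1% for Fgb and 42.7% for Fgg. Its part in the ZT16 levels was not tested. Log2 differences of Fga, Fgb and Fgg lay between -0.06 and 0.06 at ZT0 and ZT4, and between 0.17 and 0.72 at ZT8 to ZT20. Both ends of the later range were those of Fga, and neither was called. The 0.17 at ZT16 fell to 0.03 without WT replicate 3. For the 0.72 at ZT20, WT livers had 4424, 2981 and 2199 CPM and KO livers 4542, 2788 and 8619 CPM, which overlapped. Among the 4 times without ZT16 and ZT20, the varying difference of Fgg passed the test (adjusted p = 0.00903), as 3.5% of genes did, while over all 6 times it did not.

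Rhythm over the day was tested with a 24 h cosine curve in each genotype. In WT 24 of 36 members were called rhythmic (56.4% of all tested genes were) and in KO 20 of 36 (48.3%), 19 of them in both and 11 in neither, so the members' shares of 66.7% and 55.6% were not far from those of all genes. The members fell into 2 sets by peak time. In WT 14 peaked in the day, between ZT3.42 and ZT8.56: C2, C3, C4b, Masp1, F2, F5, F7, F10, F12, Fga, Serpinf2, Plg, Proc and Vtn. The other 10 peaked at night, between ZT16.0 and ZT22.4: C8a, C8b, C8g, C9, Mbl1, F9, F13b, Fgb, Fgg and Cpb2. In KO 13 peaked in the day, between ZT4.28 and ZT5.89, and 7 at night, between ZT16.9 and ZT19.0.

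**Figure D3:**
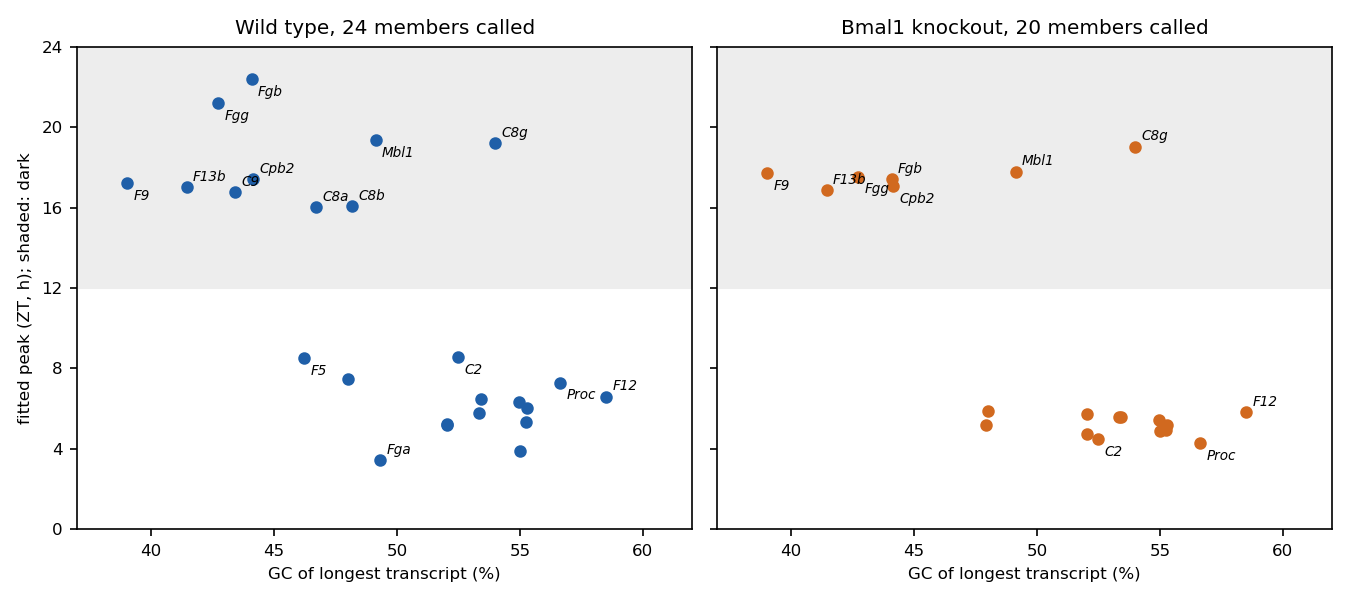
Fitted peak time (ZT in hours, dark phase shaded) of each member called rhythmic, against the GC content of its longest transcript, in WT (24 members) and KO (20 members); in the dense group of day peaks only outlying genes are named. Members with a day peak have a median GC content of 53.4% in both genotypes, those with a night peak 44.1%.

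The 2 sets differed in transcript GC content, the property that also separated the libraries of ZT16 and ZT20. In WT the day set had a median of 53.4% GC and the night set 44.1%; over all rhythmic genes the medians were 54.2% and 44.3%. With each library's trend over GC content removed, 19 members were called in WT (44.4% of genes) and 12 in KO (26.1%), of which 16 and 11 were among those called without that step. With the 12 libraries of those times left out, 8 were called in WT (16.3% of genes) and 0 in KO (0.724% of genes, edgeR; 10 members had an unadjusted p under 0.05). The times left run from ZT0 to ZT12, so a call there shows change over that part of the day and not a full cycle. A lost call can also reflect the smaller number of libraries. The part of the GC trend in these rhythms was not tested further.

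In WT, 4 members were called under each of these 3 settings: F5, Fga, Fgg and Serpinf2. F5, the cofactor of factor X in forming thrombin, was 425 ± 16.9 CPM at ZT0 and 679 ± 70.2 CPM at ZT12 in WT (SD, n = 3), and 387, 473 and 273 CPM at ZT16, the last in the library with the doubtful label, with a 1.68-fold peak-to-trough ratio at ZT8.51 (adjusted p = 0.00106; 0.000276 after removal of the GC trend, 0.0021 on 4 times). In KO its ratio was 1.22-fold (adjusted p = 0.303). Serpinf2 was 1037 ± 64.9 CPM at ZT4 in WT and 537, 414 and 316 CPM at ZT16, the last again in that library, a 2.3-fold ratio (adjusted p = 2.97e-06), and 1228 ± 158 CPM at ZT4 and 604 ± 101 CPM at ZT16 in KO, a 1.87-fold ratio (adjusted p = 0.000224). In KO the Serpinf2 call was lost after removal of that trend (adjusted p = 0.337) and on 4 times (0.319). Among members called rhythmic, the largest fitted ratio was that of Vtn, 2.94-fold in WT and 3.18-fold in KO, peaking at ZT6.02 and ZT5.19, and without ZT16 and ZT20 its adjusted p was 0.668 in WT and 0.281 in KO.

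A call in 1 genotype does not show that the rhythms differed. The difference was tested itself, and no member was called, against 2.23% of tested genes; 4 members had an unadjusted p under 0.05 with edgeR and 5 with DESeq2, which called 0. The 4 smallest adjusted p were 0.195 for C6 (0.863 without WT ZT16 replicate 3), 0.276 for Fgg, 0.323 for C2 and 0.36 for Fgb. Fitted peaks of these genes were ZT21.2 in WT and ZT17.6 in KO for Fgg, ZT22.4 and ZT17.4 for Fgb, and ZT8.56 and ZT4.48 for C2. On the 4 times ZT0 to ZT12 alone, the differing rhythm was called for Fgg (adjusted p = 0.00399), Fgb (0.0399) and C2 (0.0456), where 3.61% of genes were called. For C8a, C8b, C9 and F10 the rhythm call in WT was lost without WT ZT16 replicate 3 (adjusted p = 0.201, 0.0588, 0.0673 and 0.0945), whose levels of C8a, C8b and C9 were 1087, 673 and 1170 CPM.

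A further comparison set females against males within each genotype, on 35 libraries and 13391 tested genes. The terminal complement pathway was lower in females: 5 of its 6 members in WT and all 6 in KO passed the test. Over the 36 members, 3 were higher (4.7% of all genes) and 5 lower (4.19%) in WT females, and 0 higher (4.05%) and 8 lower (3.39%) in KO females. The 5 lower in WT, C6, C8a, C8b, C9 and Hc, were among the 8 lower in KO, which further held C8g, Masp1 and F11. C3, Cfi and Mbl2 were higher in WT females. The Cfi call (adjusted p = 0.0281) was lost in 3 of the 35 fits without 1 library. It was also lost with age as a covariate, without the filter on low counts and without ZT16 and ZT20 (adjusted p = 0.0578). The Masp1 call in KO was likewise lost without those times (adjusted p = 0.1). Female livers also had higher levels of Kupffer cell markers, 4 of 11 called in WT and 5 of 11 in KO and none lower, and their part in these differences was not tested.

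C6 (ENSMUSG00000022181, mm9 chromosome 15, 4677175 to 4765456), which follows C5b in the assembly of the pore, differed most. WT males had 66.6, 283 and 436 CPM (lowest, median, highest of 9) and WT females 12.5, 20.1 and 32.1 CPM (8 livers). KO males had 115, 286 and 389 CPM and KO females 8.31, 19.9 and 67.9 CPM (9 livers each). The sexes did not overlap in either genotype, and females differed from males by -3.81 ± 0.31 on the log2 scale in WT (adjusted p = 8.7e-10) and by -3.58 ± 0.29 in KO (adjusted p = 1.2e-09). The ZT16 WT library with the doubtful label had 270 CPM, within the range of males. Female levels of C6, C8a, C8b and C9 relative to males did not pass the test of a difference between genotypes, with adjusted p of 0.842, 0.899, 0.885 and 0.462.

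C8a (ENSMUSG00000035031, mm9 chromosome 4, 104488284 to 104549003) was also separate by sex in both genotypes. WT males had 822, 999 and 1158 CPM and WT females 210, 312 and 723 CPM, a log2 difference of -1.47 ± 0.19 (adjusted p = 4.77e-06). KO males had 570, 672 and 1158 CPM and KO females 142, 279 and 464 CPM (-1.38 ± 0.17, adjusted p = 3.36e-06). C6 and C8a were the 2 members with females below males without overlap in WT (0.508% of tested genes), and in KO C8b, C9 and F11 joined them, 5 in all (0.545%). C8b had 337, 532 and 696 CPM in WT males and 129, 224 and 464 CPM in WT females, which overlapped (-1.001 ± 0.20, adjusted p = 0.00158). In KO C8b had 382, 501 and 877 CPM in males and 164, 237 and 361 CPM in females (-1.11 ± 0.18, adjusted p = 0.000164).

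C9 was lower in females by similar measures, with 495, 752 and 1324 CPM in WT males and 221, 329 and 749 CPM in WT females (-1.05 ± 0.22, adjusted p = 0.0021). In KO males C9 stood at 1397, 1847 and 3970 CPM and in KO females at 272, 641 and 1021 CPM (-1.66 ± 0.20, adjusted p = 1.45e-06). Hc, the C5 gene, differed by -0.50 in WT (adjusted p = 0.00997) and -0.42 in KO (adjusted p = 0.0226). C8g, which encodes the lipocalin chain of C8, was the exception in WT (0.08, adjusted p = 0.767), while in KO it differed by -0.48 (adjusted p = 0.017). The difference between these 2 effects of sex on C8g was not called (adjusted p = 0.262). Its KO call was lost without the ZT16 and ZT20 libraries (adjusted p = 0.0847).

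**Figure D4:**
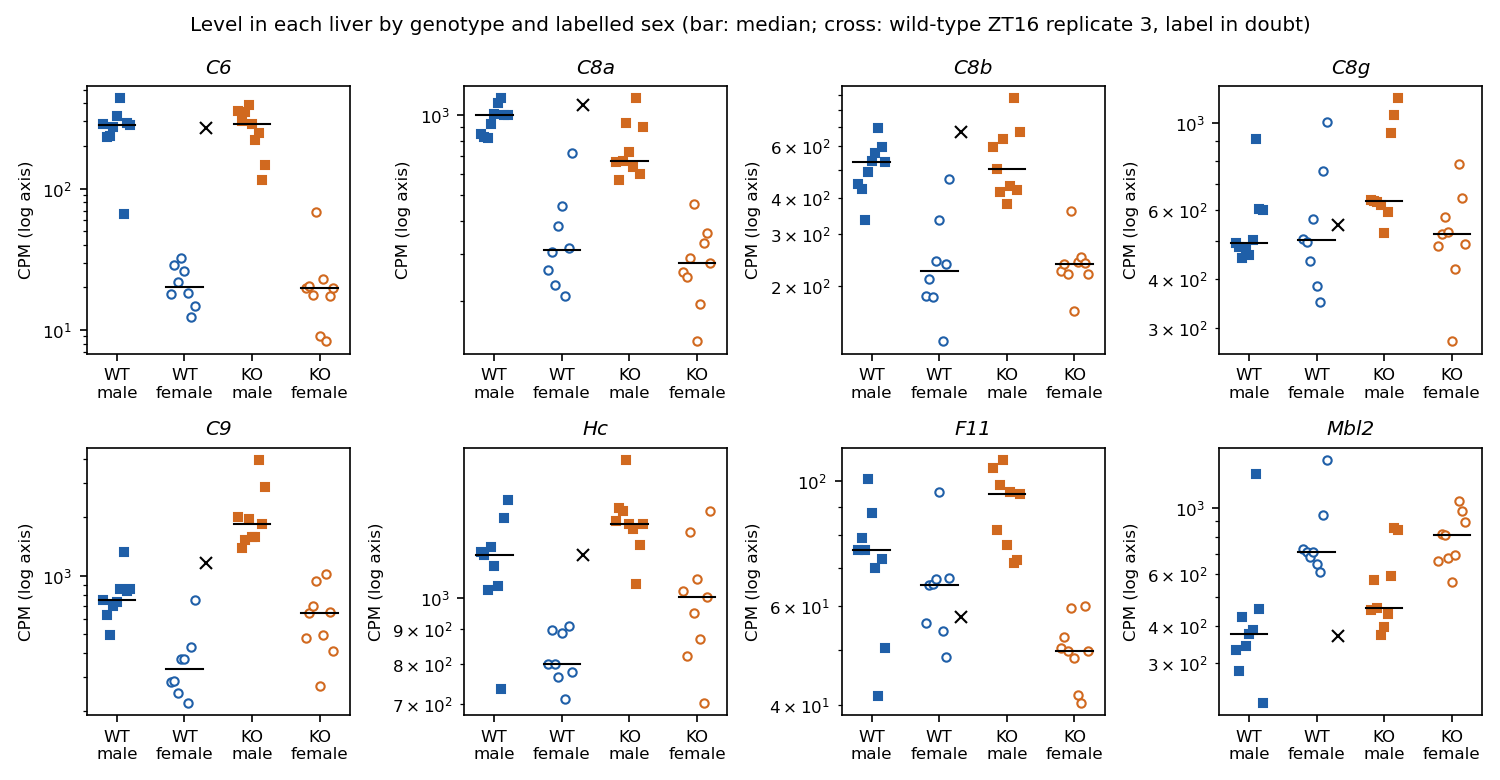
Level in CPM (log axis) of 8 members in each liver, by genotype and labelled sex; bars are medians, and the cross is WT ZT16 replicate 3, whose reads went against its label. Males and females are separate for C6 and C8a in both genotypes, and KO males lie above WT males for C9.

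Outside the terminal pathway, Mbl2 and F11 had the smallest p for sex. Mbl2, a mannose-binding lectin, had 220, 377 and 1299 CPM in WT males and 607, 711 and 1455 CPM in WT females, which overlapped through 1 male (1.16 ± 0.20, adjusted p = 0.000343). In KO it had 372, 461 and 857 CPM in males and 564, 810 and 1055 CPM in females (0.53, adjusted p = 0.0684). F11, the contact-pathway protease that activates factor IX, had 41.4, 75.3 and 101 CPM in WT males and 48.8, 65.4 and 95.6 CPM in WT females (-0.17 ± 0.14, adjusted p = 0.49). In KO the 9 males had 71.4, 94.8 and 109 CPM and the 9 females 40.4, 49.9 and 59.9 CPM, without overlap (-0.86 ± 0.12, adjusted p = 2.47e-05). The difference between these effects was not called by edgeR (adjusted p = 0.14) and was by DESeq2 (adjusted p = 0.0339). Over all members edgeR called 0 of 36 for a sex difference that differed between genotypes (0.299% of genes). With edgeR 8 of the 36 had an unadjusted p under 0.05, as did 10.4% of all tested genes. DESeq2 called 2, F11 and Pros1 (1.04%).

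Other genes of the same systems, were taken as a list of 57. The table held 54 of them and 47 were tested; 6 were higher and 19 lower in KO (17.6% and 18.1% of all tested genes were), with a median log2 fold change of -0.21. C1s, a protease of the classical pathway that cleaves C4 and C2, was 655 ± 87.3 CPM in WT and 404 ± 76.0 CPM in KO (SD, n = 18; -0.71, adjusted p = 4.22e-11). Apoh, a phospholipid-binding plasma protein, rose from 2272 ± 601 to 3599 ± 769 CPM (0.67, adjusted p = 8.56e-06). Cd59a, a membrane inhibitor of the pore that C9 completes, rose from 78.8 ± 20.1 to 109 ± 31.9 CPM (0.46, adjusted p = 3.21e-06). Fcna, a ficolin, fell from 30.04 ± 12.1 to 18.7 ± 7.49 CPM (-0.72, adjusted p = 4.63e-05). C1qa, C1qb and C1qc, which stand in the Kupffer cell list as well, had log2 fold changes of -0.83, -0.69 and -0.70. Of markers of other cells, 6 of 9 of sinusoidal endothelium and 3 of 7 of stellate cells were lower and none higher, 0 of 3 of platelets were called, and of 5 of cholangiocytes 1 was higher (Sox9, 1.35, adjusted p = 6.79e-08) and 1 lower (Krt7, -0.67, adjusted p = 0.00836).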

How the data were processed

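Stranded mRNA libraries of 36 mouse livers were analysed. The deposited table holds counts, whole-number reads per gene made by the authors; per the submitters' processing notes CASAVA, STAR 2.4.0f1 and the mm9 genome were used, and the counter and its annotation are not given in the sources used here. Coordinates of genes are those of the table. Counts were fitted with edgeR 4.0.16 in R 4.3.3 (TMM; filterByExpr on 12 groups, minimum count 10, minimum total 15; quasi-likelihood F tests), with group means and labelled sex, with a 24 h cosine per genotype, or, on 35 libraries, with sex within genotype. Adjusted p are Benjamini-Hochberg values over all tested genes, called under 0.05, and come from edgeR unless DESeq2 1.42.0 is named. Levels are CPM on TMM-scaled totals. Transcript length and GC content come from the longest GENCODE vM21 transcript (GRCm38) and motifs from RefSeq promoters. The fits were tested on simulated counts.

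Members, lists and tests were chosen with earlier results of these data known. Levels per liver are given for the 3 members called higher and the 3 lower of smallest p, the 4 of smallest p for a varying difference, a differing rhythm and the sex difference in each genotype, and some members beyond these, chosen after their values were seen. Alternatives were DESeq2 size factors, no filter on low counts, DESeq2, age as a covariate, no sex covariate, each sex alone, removal of each library's GC trend (loess span 0.3), no ZT16 and ZT20 libraries, and each library left out in turn.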

Additional observations from a re-analysis of the deposited data

How the results depend on the processing

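Over the mean of the 6 times, 17 members were called (13 higher, 4 lower). With males alone 11 were called (1 lower), as were 14.7% of all tested genes, against 35.7% in the main fit. With females alone, by label, 8 were called (5 higher), as were 17.1% of genes. Each of these fits holds fewer livers. Without 1 library the count was 15 to 19 (11 to 14 higher, 4 to 6 lower), and 15 of the 17 genes kept their call in all 36 such fits, the exceptions being C4b and Hc. C4b turned to -0.029 in females alone (adjusted p = 0.92), the 1 reversal among 94 results for single genes; of their values under alternatives 3694 stayed on their side of the threshold and 359 lost it.

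Calls at single times numbered 17, but 10 without the filter on low counts, 28 with DESeq2 and 10 with no sex covariate. At the 4 times left without ZT16 and ZT20 they numbered 32 (11 before). The shares over all genes moved as well. By time they were 1.97% to 11.9% in the main fit, 1.16% to 6.24% without the filter and 2.86% to 13.6% with DESeq2. With no sex covariate they were 1.15% to 9.51%, and without ZT16 and ZT20 6.14% to 22.2%. Without 1 library the members' calls numbered 11 to 26. They were over 1.5 times away without WT ZT4 replicate 1 or 2, WT ZT8 replicate 2 or WT ZT16 replicate 1. The same held without KO ZT4 replicate 3 or KO ZT16 replicate 1. The cause was not tested. A varying difference was called for 0 members, for 1 (Fgg) without ZT16 and ZT20, and for 0 to 1 without 1 library. That 1 was C6 without WT ZT16 replicate 1 (adjusted p = 0.0214), a fit that kept WT ZT16 replicate 3, of doubtful label. Without replicate 3 the adjusted p of C6 was 0.923.

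Rhythmic members fell from 24 to 8 in WT and from 20 to 0 in KO without ZT16 and ZT20, and to 12 in KO with the GC trend removed; without 1 library they were 22 to 26 and 16 to 21. A differing rhythm was called for 0 members, and for 3 without ZT16 and ZT20. Sex was called for 8 members in WT (8.89% of genes; 6 to 8 members without 1 library) and for 8 in KO (6 to 9). With WT ZT16 replicate 3 kept it was called for 4 members in WT (3.99% of genes). The difference of the sex effect between genotypes was called for 0 members, and for 2 with DESeq2. Replicate numbers were given in accession order and pair no mice; cage, which 5 pairs of a WT and a KO mouse of the same time shared, was used in no fit. With 3 mice per group and time, differences at 1 time were measured less precisely than those over the day (SE of Plg 0.17 at ZT12 and 0.07 over 6 times).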

Other observations

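Sex differences in WT also reached other genes of the same systems. Of the 47 tested genes of the further complement and coagulation list, 7 were higher and 4 lower in WT females, as were 4.7% and 4.19% of all tested genes (edgeR, adjusted p under 0.05, 35 libraries). C4a, the near-identical neighbour of C4b, had a female-to-male log2 difference of -4.57 (adjusted p = 4.51e-08), while C4b differed by 0.15 (adjusted p = 0.601). The classical pathway proteases C1s and C1ra differed by -0.26 and -0.35 (adjusted p = 0.0339 and 0.00588). Fgl1, a fibrinogen-like protein secreted by hepatocytes, was higher in females (1.72, adjusted p = 0.000111), whereas Fga, Fgb and Fgg differed by 0.05, 0.13 and 0.14 and were not called (adjusted p = 0.903, 0.531 and 0.574). The collectins Colec10 and Colec11 and the ficolin Fcna, recognition molecules of the lectin pathway like Mbl2, were higher in females by 0.78, 0.79 and 0.77 (adjusted p = 0.00911, 0.0274 and 0.0165). Mbl1, the other mannose-binding lectin, differed by 0.12 and was not called (adjusted p = 0.785). Of cell type markers, 4 of 11 of Kupffer cells and 2 of 7 of stellate cells were also higher in WT females and 0 lower. Their part in these differences was not tested. The genes named here were chosen after their values were seen.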
